A study of Mus musculus with 4 samples.

Results

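The genes that build MHC class I molecules and supply their peptides were examined in leukaemic and wild type mouse spleen. The set named 10 genes: the classical heavy chain genes H2-K1 and H2-D1, the light chain gene B2m, the peptide transporter genes Tap1 and Tap2, the tapasin gene Tapbp, the immunoproteasome genes Psmb8, Psmb9 and Psmb10, and the regulator gene Nlrc5. All probe sets whose platform annotation carries one of these symbols were taken, which gave 30 of 23309 probe sets for 10 of the 20683 gene symbols on the array. Of the 30, 26 carried a single symbol and covered 8 genes, and 19 of those belonged to Nlrc5 alone. The other 4 carried several symbols and are marked as shared. H2-K1 and H2-D1 had only shared probe sets.

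Each of 4 Affymetrix arrays, of a design with probes along whole transcripts, received RNA from the spleen of 1 mouse of strain 129Sv. The 2 mice with B cell leukaemia were RBP-J flox/flox and Ren1d cre/cre, so that cre recombinase stood at both alleles of Ren1d, a renin gene, and could act in cells that express it or descend from such cells. Leukaemic replicate 1 was a female of 107 days with a spleen of 0.7 g, and leukaemic replicate 2 a male of 93 days with a spleen of 0.47 g. The 2 wild type mice were RBP-J flox/flox and Ren1d +/+, without cre. Both were females, aged 80 and 81 days, whose spleens weighed 0.12 g and 0.16 g. All 4 mice thus carried the floxed gene of RBP-J, through which Notch receptors act on DNA. Cre, age and the weight of the spleen went with the group and cannot be told apart from the leukaemia. Values are on the log2 scale, and array medians were 7.96 on both leukaemic arrays and 8.03 and 8.02 on the wild type arrays. Wild type replicate 2 stood apart by transcripts of exocrine pancreas, whose 20 measured marker genes were all at least 1 (log2) above the other 3 arrays. The mean of that list was 6.63 and 6.49 in leukaemic spleen, against 6.52 and 11.53 in wild type replicates 1 and 2.

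MHC class I molecules present peptides from inside the cell to CD8 T cells and are also read by inhibitory receptors of natural killer (NK) cells. A heavy chain pairs with beta-2 microglobulin, the product of B2m, and is loaded in the endoplasmic reticulum with peptides that the proteasome cuts, the TAP transporter carries in and tapasin helps to fit. Nearly all nucleated cells express class I molecules, lymphocytes strongly, and interferon raises most of these genes. NLRC5 is the transactivator of the class I genes, acting through promoter elements called the S, X and Y boxes, as its relative CIITA does for class II genes.

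The promoters of H2-K1, H2-D1, B2m and of the pair Tap1 and Psmb9 are shown because NLRC5, interferon regulatory factors (IRF) and NF-kappaB are known to act on class I genes through their promoters. They are RefSeq sequences of build GRCm38.p6, an assembly of the C57BL/6J strain and not of 129Sv, and are written 5′ to 3′. Each ends at the base before an annotated transcription start. H2-K1 has more than one annotated start, and the downstream one was used. Capitals mark matches, on either strand, to the letters GAANNGAAA or GAAANNGAA (repeats bound by IRF proteins), GGGGATTCC (part of the NF-kappaB site of the class I enhancer), TGACG (core of the X2 box) and CCAAT (the Y box, which reads ATTGG on the other strand).
H2-K1 (chr17:34000334-34000583, minus strand): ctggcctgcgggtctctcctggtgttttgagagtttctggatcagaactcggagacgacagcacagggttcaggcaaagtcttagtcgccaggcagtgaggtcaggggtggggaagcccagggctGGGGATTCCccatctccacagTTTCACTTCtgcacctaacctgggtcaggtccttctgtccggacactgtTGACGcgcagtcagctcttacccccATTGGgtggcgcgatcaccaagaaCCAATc
H2-D1 (chr17:35262844-35263093, plus strand): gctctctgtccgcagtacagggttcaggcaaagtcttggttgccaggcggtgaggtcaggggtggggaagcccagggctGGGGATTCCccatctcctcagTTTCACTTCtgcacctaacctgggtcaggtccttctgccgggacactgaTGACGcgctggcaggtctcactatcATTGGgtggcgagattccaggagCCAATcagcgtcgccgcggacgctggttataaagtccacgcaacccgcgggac
B2m (chr2:122147437-122147686, plus strand): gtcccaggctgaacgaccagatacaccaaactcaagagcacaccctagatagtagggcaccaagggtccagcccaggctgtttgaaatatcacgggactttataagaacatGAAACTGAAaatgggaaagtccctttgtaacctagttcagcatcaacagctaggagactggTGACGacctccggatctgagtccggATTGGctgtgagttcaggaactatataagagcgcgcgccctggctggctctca
Tap1 and Psmb9 (chr17:34187331-34187555, plus strand, the whole stretch between the annotated starts of Psmb9 and Tap1): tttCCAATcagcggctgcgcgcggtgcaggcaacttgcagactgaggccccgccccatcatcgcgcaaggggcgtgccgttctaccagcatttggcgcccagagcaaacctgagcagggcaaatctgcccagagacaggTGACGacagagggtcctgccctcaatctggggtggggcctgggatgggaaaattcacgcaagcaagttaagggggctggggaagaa

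H2-K1, H2-D1 and B2m, 3 of the 8 genes with a window, shared one arrangement, a TGACG followed by ATTGG after 20 bases. This order, with 15 to 30 bases between, was found in 0.256% of 32851 mouse promoter windows of 250 bases. The letters GGGGATTCC stood in the windows of H2-K1 and H2-D1 and in 0.213% of all windows. An IRF repeat was present in H2-K1 and H2-D1 as GAANNGAAA (6.31% of all windows) and in B2m as GAAANNGAA (7.13%). The stretch between Psmb9 and Tap1 held 1 TGACG and 1 CCAAT, which alone are common, at 17.8% and 33.8% of windows, and it did not have the spaced arrangement. In all, 8 of the 10 genes matched a promoter window. The windows of Psmb8 and Psmb10 held none of these letters, that of Tapbp held only CCAAT, at 2 places, and those of Tap2 and Nlrc5 were not analysed here. The letters were chosen with these promoters in view, and a match is a description of the sequence and not a site shown to be used.

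None of the 30 probe sets passed the test for a difference between leukaemic and wild type spleen. That is limma's moderated test with Benjamini-Hochberg adjustment over all 23309 probe sets at an adjusted p of 0.05, which called 391 probe sets, or 1.68%. At an unadjusted p under 0.05 there were 3 of 30, Tap1, Tap2 and Tapbp, against 19.8% of all probe sets, or 9.84% counting those with lower values only. Differences, given throughout as leukaemic minus wild type on the log2 scale, ran from -0.52 to 0.12 with a median of -0.33, beside a median of -0.03 over all probe sets. They were below 0 for 29 of 30, against 55.5% of all probe sets. Nlrc5 holds 19 of the 30: for the 7 other genes with a single-symbol probe set the median was -0.18, and with 1 probe set for each of 8 genes it was -0.23. The 95% intervals of 27 of the 30 included 0, and across all 30 they reached from -1.18 to 0.50. Without wild type replicate 2, the array with pancreas transcripts, the median of the 30 was -0.37. Without leukaemic replicate 1 it was -0.07, with 22 of 30 below 0. Whole spleen was measured, so fewer cells of a type and less RNA per cell cannot be told apart.

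The classical heavy chains were read by a pair of probe sets, each annotated to both H2-K1 and H2-D1 and to LOC547349, so the 2 genes cannot be separated here. Probe set 10450075, which lists H2-K1 first, read 11.83 and 12.17 in leukaemic replicates 1 and 2, against 12.43 and 12.22 in wild type replicates 1 and 2. Probe set 10444780, which lists H2-D1 first, read 11.97 and 12.33 in leukaemic spleen and 12.63 and 12.35 in wild type spleen. In both, leukaemic replicate 1 was the lowest array and leukaemic replicate 2 lay just under wild type replicate 2. The differences were -0.32 (95% interval -0.74 to 0.09, limma adjusted p = 0.38) and -0.34 (-0.78 to 0.09, adjusted p = 0.38). Without leukaemic replicate 1 they were -0.15 and -0.17.

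B2m, the invariant light chain that pairs with the classical class I heavy chains, read 12.69 and 12.76 in leukaemic spleen and 12.93 and 12.73 in wild type spleen. The groups overlapped. Its difference was -0.11 (95% interval -0.45 to 0.24, limma adjusted p = 0.80), so a difference of more than 0.45 in either direction lies outside the interval. It was 0.00 without wild type replicate 1.

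**Figure D1:**
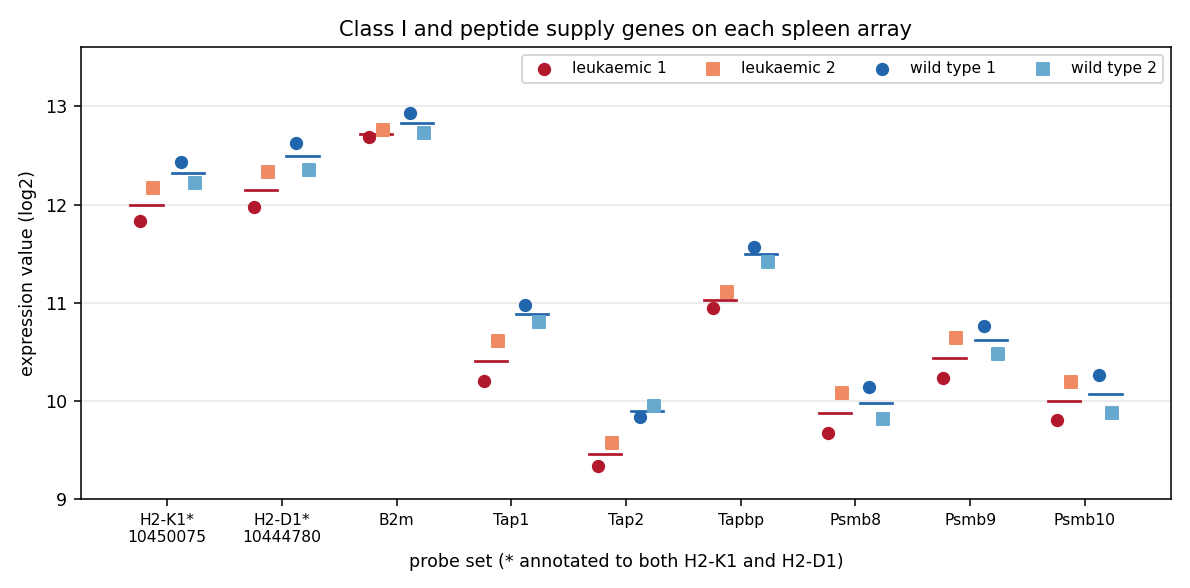
Log2 expression value of 9 probe sets on each array, with leukaemic replicates (red) left of wild type replicates (blue) and a line at each group mean of 2 mice; asterisks mark the probe sets annotated to both H2-K1 and H2-D1. The groups do not overlap for the heavy chains, Tap1, Tap2 and Tapbp, and overlap for B2m and the 3 Psmb genes. Both leukaemic arrays lie below both wild type arrays in 25.5% of all probe sets.

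The genes of peptide transport and loading had the lowest p of the set. Tap1 and Tap2 encode the subunits of the TAP transporter, which moves peptides from the cytosol into the endoplasmic reticulum. Tap1 read 10.20 and 10.61 in leukaemic spleen, against 10.98 and 10.80 in wild type spleen. Its difference was -0.48 (SE 0.18, limma adjusted p = 0.21), and it was -0.28 without leukaemic replicate 1. Tap2 read 9.34 and 9.57 in leukaemic spleen and 9.84 and 9.95 in wild type spleen, a difference of -0.44 (SE 0.15, adjusted p = 0.17). For both transporter genes the leukaemic mice lay below the wild type mice, as in 25.5% of all probe sets.

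Tapbp encodes tapasin, which bridges TAP and empty class I molecules. Its probe set with a single symbol, 10444068, read 10.95 and 11.11 in leukaemic spleen and 11.57 and 11.42 in wild type spleen. The difference was -0.46 (SE 0.15, 95% interval -0.81 to -0.11, limma adjusted p = 0.15), the smallest adjusted p among the 30. A further 2 probe sets carry Tapbp together with Rps3a1, the gene of a ribosomal protein. Of these, 10421908 read 12.37 and 12.32 in leukaemic spleen and 12.39 and 12.32 in wild type spleen, and 10499121 read 11.77 on both leukaemic arrays, against 11.82 and 11.49 in wild type spleen. In both probe sets the groups overlapped. Their differences of -0.01 and 0.12 were unlike that of the single-symbol probe set, and which of the annotated transcripts they measure was not tested.

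The immunoproteasome genes overlapped between the groups. Psmb8, Psmb9 and Psmb10 encode the catalytic subunits LMP7, LMP2 and MECL-1, which replace those of the ordinary proteasome in lymphoid cells and after interferon. Psmb8 read 9.67 and 10.08 in leukaemic spleen and 10.14 and 9.82 in wild type spleen, a difference of -0.10 (95% interval -0.57 to 0.36). Psmb9 read 10.23 and 10.64 in leukaemic spleen against 10.76 and 10.48 in wild type spleen, a difference of -0.18 (-0.64 to 0.28). Psmb10 read 9.81 and 10.19 in leukaemic spleen and 10.26 and 9.88 in wild type spleen, a difference of -0.07 (-0.55 to 0.41). In each of the 3 genes leukaemic replicate 2 lay above wild type replicate 2 and leukaemic replicate 1 lay below both wild type mice. Limma's adjusted p was between 0.71 and 0.92.

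The constitutive subunits that these 3 replace had differences above 0. Psmb5, the partner of Psmb8, read 11.69 on both leukaemic arrays, against 11.46 and 11.27 in wild type spleen. Psmb6, the partner of Psmb9, read 10.68 and 11.02 in leukaemic spleen and 10.42 and 10.15 in wild type spleen, and Psmb7, the partner of Psmb10, read 10.68 and 10.64 in leukaemic spleen against 10.26 and 10.01 in wild type spleen. Their differences were 0.33, 0.57 and 0.53 (SE 0.14, 0.18 and 0.15), and 0 of the 3 passed limma's test (adjusted p 0.27, 0.15 and 0.13). At an unadjusted p under 0.05 there were 2 of the 3, against 9.94% of all probe sets in that direction. All 3 had both leukaemic arrays above both wild type arrays, as had 23.2% of all probe sets. Wild type replicate 2, the array with pancreas transcripts, was the lowest in all 3. Without it the differences were 0.24, 0.43 and 0.40, and without wild type replicate 1 they were 0.43, 0.70 and 0.65.

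The log2 value of each immunoproteasome subunit minus that of its partner was then taken on every array. For Psmb9 minus Psmb6 this was -0.45 and -0.38 in leukaemic spleen, against 0.34 and 0.33 in wild type spleen. The difference between the groups was -0.75, with little spread within either group. For Psmb10 minus Psmb7 it was -0.87 and -0.45 in leukaemic spleen and -0.01 and -0.13 in wild type spleen, a difference of -0.59. For Psmb8 minus Psmb5 it was -2.02 and -1.61 in leukaemic spleen and -1.32 and -1.45 in wild type spleen, a difference of -0.44. None of the 3 pairs overlapped between the groups. The share over other pairs was not taken, and of single probe sets 25.5% had both leukaemic arrays below both wild type arrays. The exact two-sided permutation test gave p = 0.333 for each, also after adjustment over the 3 pairs, which is the smallest p that 2 against 2 mice allow. Without leukaemic replicate 1 the differences were -0.71, -0.38 and -0.23 in the same order of pairs. The sign of such a value says nothing of which subunit is more abundant, since each comes from another probe set.

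Other proteasome subunits also had differences above 0. Of 11 other genes of the 20S core, 0 passed and 11 had differences above 0 (median 0.36), among them Psma6 at 0.51 (SE 0.17) and Psma7 at 0.40 (SE 0.13). Of 17 genes of the 19S cap, which feeds substrates to the core, 0 passed and 17 lay above 0 (median 0.41), with Psmc1 at 0.66 (SE 0.17, limma adjusted p = 0.096) and Psmd3 at 0.56 (SE 0.14, adjusted p = 0.099). At an unadjusted p under 0.05 there were 4 of 11 and 11 of 17, against 9.94% of all probe sets in that direction. The mean log2 level of the core list was 11.09 and 11.08 in leukaemic spleen, against 10.83 and 10.62 in wild type spleen. That of the cap list was 10.70 and 10.72 in leukaemic spleen and 10.37 and 10.22 in wild type spleen, so wild type replicate 2 was the lowest array in both. Without that mouse Psma6, Psma7, Psmc1 and Psmd3 were at 0.37, 0.36, 0.54 and 0.52. Without wild type replicate 1 they were at 0.66, 0.44, 0.78 and 0.59.

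Genes of proteasome activators and assembly lay on both sides of 0. Of 9, 0 passed limma's test and 1 had an unadjusted p under 0.05, against 19.8% of all probe sets. Differences ran from -0.25 to 0.50 (median 0.07). The interferon-inducible activator genes Psme1 and Psme2, named outside the rule for their role beside the immunoproteasome and after their values were seen, had differences of -0.20 (95% interval -0.59 to 0.18) and 0.07 (-0.36 to 0.49). Psme1 was at -0.07 without wild type replicate 1, and Psme2 changed sign with a mouse left out (-0.10 to 0.23). The assembly chaperone genes Psmg1 and Psmg2 were at 0.50 (SE 0.15, limma adjusted p = 0.15) and 0.32 (SE 0.17, adjusted p = 0.39). Psmg2 was at 0.13 without wild type replicate 2 and 0.51 without wild type replicate 1. Of 8 cytosolic peptidases, which trim or destroy peptides after the proteasome, 0 passed, 4 had an unadjusted p under 0.05 and 8 lay above 0 (median 0.41). Over all probe sets 9.94% had such a p with higher values, and 55.5% lay below 0. The bleomycin hydrolase gene Blmh differed by 0.92 (SE 0.18) and the insulin-degrading enzyme gene Ide by 0.70 (SE 0.14), with limma adjusted p of 0.061 and 0.071. Both passed with the trend and robust variance prior (limma adjusted p = 0.026 and 0.039). With a mouse left out, Blmh ran from 0.75 to 1.09.

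**Figure D2:**
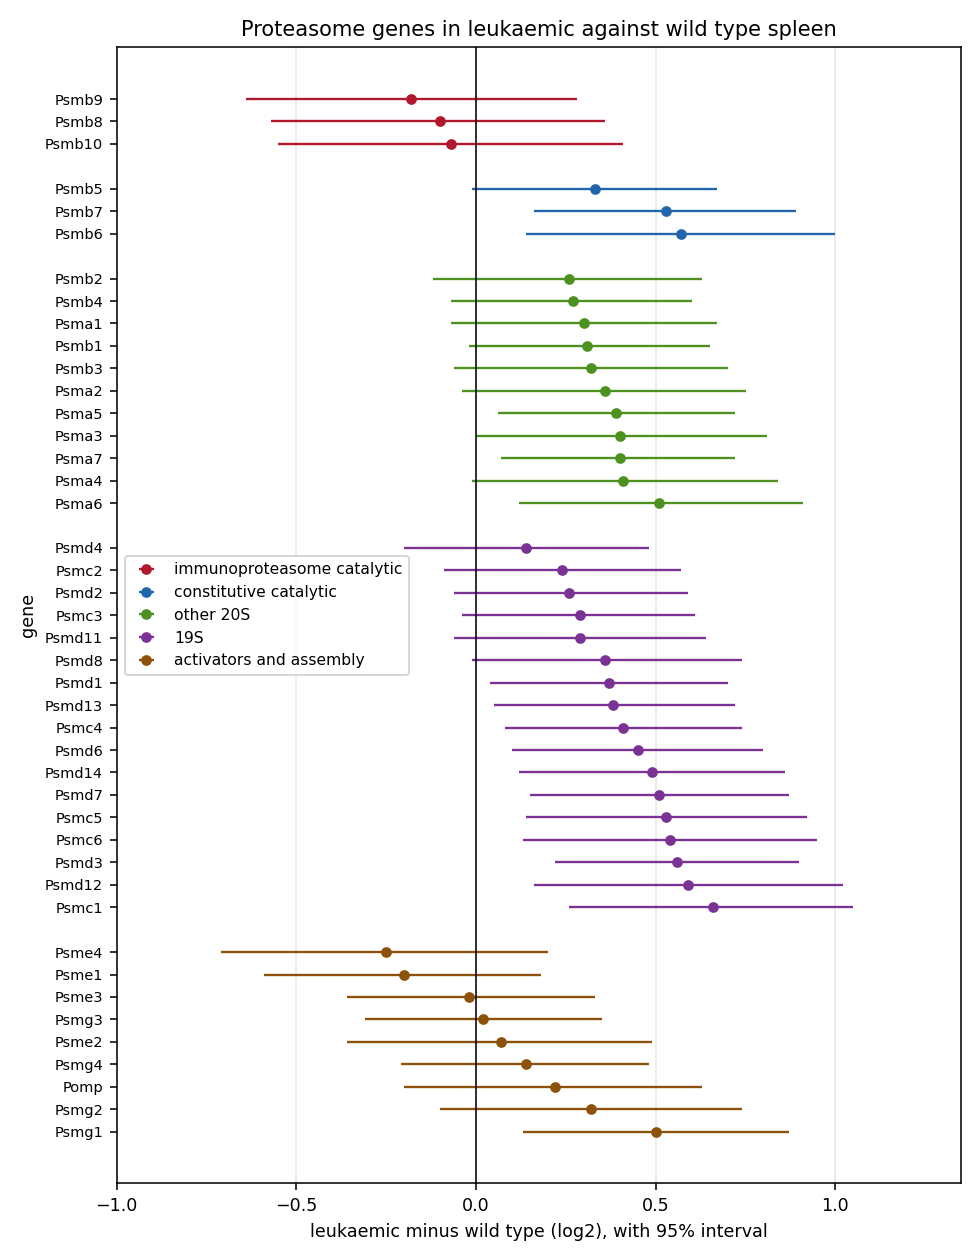
Difference in log2 value, leukaemic minus wild type, with its 95% interval from limma for proteasome genes, 1 probe set a gene. The intervals of the 3 immunoproteasome genes include 0, and the 3 constitutive catalytic, 11 other 20S and 17 19S genes all have values above 0, although 0 of them passed the test.

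In the endoplasmic reticulum, 0 of 10 genes of peptide loading and trimming passed limma's test, with a median difference of 0.09. Of the 10, 1 had an unadjusted p under 0.05, against 19.8% of all probe sets. Tapbpl, a relative of tapasin that edits peptides, read 8.56 and 9.08 in leukaemic spleen against 9.40 and 9.37 in wild type spleen, a difference of -0.56 (SE 0.20, limma adjusted p = 0.18). It was -0.30 without leukaemic replicate 1. Prkcsh, a subunit of the glucosidase that trims glycoproteins, was at 0.31 (SE 0.14, adjusted p = 0.29).

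Nlrc5 was the best covered gene, with 19 probe sets, all annotated to the same gene and hybridised with the same 4 RNA samples, so that they are not replicates of each other. None passed limma's test, 0 had an unadjusted p under 0.05, and limma's adjusted p ran from 0.26 to 0.69. All 19 differences were below 0, between -0.52 and -0.22 with a median of -0.37. Probe set 10574098, for example, read 10.04 and 10.65 in leukaemic spleen, against 10.76 and 10.89 in wild type spleen. Probe set 10574139, with the lowest difference, read 7.87 and 8.73 in leukaemic spleen and 8.76 and 8.88 in wild type spleen. Probe set 10574135 read 7.83 and 8.67 in leukaemic spleen and 8.67 and 8.37 in wild type spleen, so that leukaemic replicate 2 equalled or passed the wild type mice.

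The leukaemic mice lay apart from each other in all 19. Leukaemic replicate 1 was the lowest of the 4 arrays in 19 of 19, as it was in 5358 of all 23309 probe sets. Leukaemic replicate 2 stood above it by 0.27 to 0.86, with a median of 0.60. The median distance of the 19 from the wild type mean was -0.69 for leukaemic replicate 1, but -0.07 for leukaemic replicate 2. The groups did not overlap in 9 of 19, with leukaemic spleen lower, as in 25.5% of all probe sets.

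**Figure D3:**
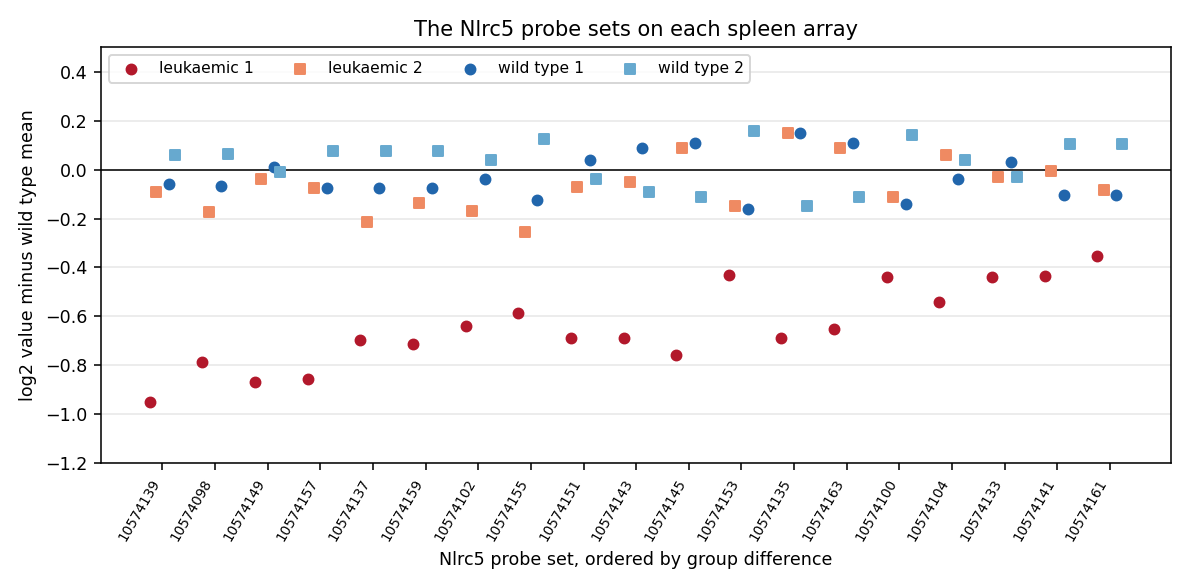
Log2 value minus the wild type mean for each of 19 Nlrc5 probe sets, with leukaemic replicates (red) left of wild type replicates (blue), ordered by the difference between groups. Leukaemic replicate 1 is the lowest point in every probe set, and leukaemic replicate 2 lies among or near the wild type points.

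For the 7 other genes with a single-symbol probe set, leukaemic replicate 1 had a median distance of -0.39 from the wild type mean, and leukaemic replicate 2 one of -0.07. The gap between the leukaemic mice ran from 0.07 for B2m to 0.41 in this group. Over all 30, with Nlrc5 and the shared probe sets included, leukaemic replicate 1 was the lowest array in 28 of the 30 cases, the exceptions being the 2 shared between Rps3a1 and Tapbp. It lay below leukaemic replicate 2 in 28 as well, against 44.5% of all probe sets. Medians over the 30, set against the wild type mean, were -0.55 in leukaemic replicate 1 and -0.07 in leukaemic replicate 2. Over all probe sets these medians were -0.01 and -0.04. With a single mouse behind each value this is a description of 2 mice, which also differed in sex, age and spleen weight. Both leukaemic arrays lay below both wild type arrays in 14 of the 30, against 25.5% of all probe sets.

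Other class I heavy chain genes, most of them nonclassical, were listed together with the class I-like genes Procr and Azgp1. This list had 20 members with a probe set of their own, with Procr at -0.05 and Azgp1 at -0.01. With limma, 0 passed and 17 lay below 0 (median -0.18), against 55.5% of all probe sets. At an unadjusted p under 0.05 there were 7, against 19.8% of all probe sets, or 9.84% counting those with lower values only. H2-T24 read 9.65 and 9.77 in leukaemic spleen against 10.46 and 10.93 in wild type spleen, a difference of -0.98 (SE 0.19, limma adjusted p = 0.061). It passed with the trend and robust variance prior (limma adjusted p = 0.026). With a mouse left out its difference ran from -1.22 to -0.75. H2-Q10, whose product is secreted by liver, read 5.84 and 5.95 in leukaemic spleen and 6.32 and 6.55 in wild type spleen, a difference of -0.54 (SE 0.15, adjusted p = 0.12). Among probe sets with several symbols, named after their values were seen, that of H2-T-ps and H2-T23 averaged 9.81 ± 0.26 in leukaemic spleen and 10.50 ± 0.13 in wild type spleen (SD, n = 2 each). H2-T23 encodes Qa-1, the ligand of the NK receptor pair of CD94 and NKG2A. The probe set of H2-Q6 and H2-Q8 read 10.07 and 11.36 in leukaemic spleen and 11.78 and 11.85 in wild type spleen. Their differences were -0.69 (adjusted p = 0.098) and -1.10 (adjusted p = 0.18), and leukaemic replicate 1 was again the lower leukaemic array. The probe set of H2-Q6 and H2-Q8 was at -0.45 without leukaemic replicate 1 and at -1.74 without leukaemic replicate 2.

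Among 25 regulators of class I genes, 1 rose and 24 did not pass, where 1.09% of all probe sets were called higher. Ezh2, the methyltransferase of Polycomb repressive complex 2, which is known to repress class I genes in some tumours and is also high in dividing cells, rose to 12.17 ± 0.11 in leukaemic spleen, against 11.21 ± 0.13 in wild type spleen (SD, n = 2 each). Its difference was 0.96 (SE 0.15, limma adjusted p = 0.042). It did not pass after quantile normalization (limma adjusted p = 0.068) or with a minimum log2 difference of 1. With a mouse left out it ran from 0.86 to 1.05. Of the other 24, 18 lay below 0 and 6 above, where 55.5% of all probe sets lay below 0. The interferon pathway genes Irf1, Irf9 and Stat2, named after their values were seen, differed by -0.57 (limma adjusted p = 0.31), -0.52 (0.13) and -0.36 (0.26). Others of that pathway lay nearer 0, with Irf2 at -0.05, Ifngr2 at -0.09 and Ifnar1 at -0.16. Ciita had the lowest difference of the list, -1.53 (adjusted p = 0.059). A further Irf1 probe set, 10385870, was at -0.33, and the values below are those of the first. Irf1 read 9.74 and 10.53 in leukaemic spleen, against 10.82 and 10.58 in wild type spleen, with leukaemic replicate 1 apart from the other 3 arrays. Its difference was -0.17 without leukaemic replicate 1 and -0.96 without leukaemic replicate 2.

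On chromosome 17 the genes Psmb9, Tap1, Psmb8 and Tap2 are direct neighbours, with 0 genes between them in RefSeq, and lie inside the class II region. Class II genes on either side lay further from 0. H2-DMa, which loads class II peptides, fell to 9.97 ± 0.23 in leukaemic spleen, against 11.42 ± 0.29 in wild type spleen (SD, n = 2 each; difference -1.45, limma adjusted p = 0.032), and H2-Ab1, named after its value was seen, was at -1.19 (adjusted p = 0.060). H2-DMa did not pass after quantile normalization (limma adjusted p = 0.056). With a mouse left out its difference ran from -1.65 to -1.25. H2-Ab1 passed with the trend and robust variance prior (limma adjusted p = 0.037). In all, 1 of 8 genes of class II presentation fell and 7 did not pass, with a median of -0.95, where 0.592% of all probe sets were called lower. The 8 include Cd74, Ctss and Ifi30, which are not on chromosome 17 and were at -0.85, -0.60 and -0.18. The 4 neighbours Psmb9, Tap1, Psmb8 and Tap2 were at -0.18, -0.48, -0.10 and -0.44. The difference between the 2 kinds of gene was not tested.

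**Figure D4:**
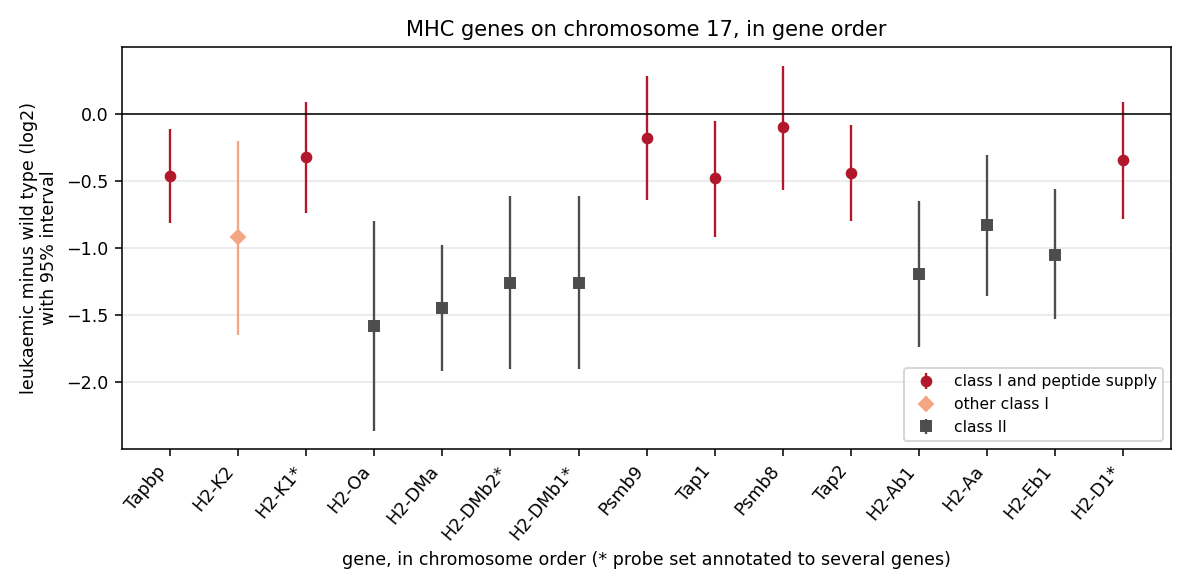
Difference in log2 value, leukaemic minus wild type, with its 95% interval from limma, for MHC genes in their order on chromosome 17; asterisks mark probe sets annotated to several genes, and H2-DMb2 and H2-DMb1 share 1 probe set. Psmb9, Tap1, Psmb8 and Tap2 lie between -0.48 and -0.10, and the class II genes around them between -1.58 and -0.83.

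Receptors that read class I molecules were measured in the same spleens. Of 13 genes, 2 fell and 11 did not pass (median -0.78), where 0.592% of all probe sets were called lower. Klrd1, among the 2, is counted again with the NK cell markers below. Klra17, a member of the Ly49 receptor family, was at 6.66 ± 0.28 in leukaemic spleen and 9.37 ± 0.60 in wild type spleen, and Klrd1, which encodes CD94, at 6.40 ± 0.67 in leukaemic spleen and 8.46 ± 0.30 in wild type spleen (SD, n = 2 each). Their differences were -2.71 and -2.05 (limma adjusted p = 0.019 and 0.042). Neither passed after quantile normalization (limma adjusted p = 0.055 and 0.078). With a mouse left out, Klra17 ran from -3.13 to -2.28 and Klrd1 from -2.53 to -1.58. Cd8a, the coreceptor gene of class I-restricted T cells, named after its value was seen, was at -1.65 (adjusted p = 0.066). It was at -1.15 without leukaemic replicate 1 and at -2.16 without leukaemic replicate 2.

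Marker genes of leukocytes were measured on the same arrays. Precursor B cell markers rose in 10 of 12 genes, led by Igll1 and Vpreb1 at 5.47 and 3.36, and the list's mean log2 level was 10.48 and 10.68 in leukaemic spleen against 8.03 and 7.92 in wild type spleen. T cell markers fell in 4 of 12 (among them Cd5 and Cd4), NK cell markers in 4 of 10 (among them Ncr1 and Klrd1), dendritic cell markers in 5 of 10 (among them Ccr9 and Clec9a) and neutrophil markers in 1 of 11 (Csf3r), and the others of these lists did not pass. Macrophage and erythroid markers had 0 of 11 each. Over all probe sets 1.09% were called higher and 0.592% lower. The T cell list averaged 8.02 and 8.82 in leukaemic replicates 1 and 2, against 10.09 and 9.66 in wild type replicates 1 and 2. The NK cell list averaged 6.59 and 7.15 in leukaemic spleen and 8.33 and 7.96 in wild type spleen, and the dendritic cell list 7.99 and 8.10 in leukaemic spleen against 9.18 and 8.94 in wild type spleen. Neutrophil markers averaged 9.32 and 10.20 in leukaemic spleen and 10.94 and 10.93 in wild type spleen. Macrophage markers averaged 9.97 and 10.11 in leukaemic spleen against 10.77 and 10.54 in wild type spleen, and erythroid markers 11.19 and 11.01 in leukaemic spleen against 11.29 and 11.86 in wild type spleen. These lists therefore had the leukaemic arrays below both wild type arrays, with the precursor B cell list above them. Of these 7 lists, 6 averaged lower in leukaemic replicate 1 than in leukaemic replicate 2, the precursor B cell list among them, and the erythroid list averaged higher. The number called in most of these lists moved with the mouse left out, up as well as down. After quantile normalization 8 of 12 precursor B cell markers and 1 of 10 dendritic cell markers were called, and 0 of 12 T cell, 0 of 10 NK cell and 0 of 11 neutrophil markers. The part of these cell types in the values of the class I genes was not tested.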

How the data were processed

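The 4 spleen arrays, 2 per group, were grouped by their titles, which also number the replicates. The replicates are individual mice, per the design text. For each array the authors deposited a log2 value of every probe set. RMA, R 2.15.0 and limma 3.12.1 are named in the submitters' processing notes, with settings not given in the sources used here. The number of arrays limits the precision.

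Probe sets were named from the platform annotation, which gave a single symbol to 20729, several to 1174 and none to 1406. All 10 genes of the set matched a mouse RefSeq table (GRCm38.p6), used for gene order.

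The groups were compared in R 4.3.3 with limma 3.58.1 (lmFit, then eBayes at its defaults). No filter and no covariate was used, and all 23309 probe sets, those with several symbols included, entered the fit and the Benjamini-Hochberg adjustment. The fit had 2 residual and 4.52 prior degrees of freedom. For lists, each gene was represented by its single-symbol probe set of highest mean. Lists were described by counts and medians, with no test of the list. Proteasome pairs were compared by exact permutation in Python 3.11.15. The limma script was tested on simulated data.

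The members, the gene lists and the rule for named genes were chosen with earlier results of these data known. That rule took every probe set of the 10 genes, all constitutive catalytic subunits, and from each other list at most 2 called genes that rose most and at most 2 that fell most, or the 2 of smallest p where none was called; marker lists gave the 2 of smallest p. Alternatives covered centring, quantile normalization, dim probe sets, the variance prior, 1 probe set a gene, a minimum fold, the replicate number and each mouse left out.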

Additional observations from a re-analysis of the deposited data

How the results depend on the processing

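The count of 0 called among the 30 probe sets held under median centring, quantile normalization and removal of the third of probe sets with the lowest mean. It held with a variance prior with trend and robust estimation, 1 probe set a gene (0 of 8) and the replicate number as a replicate block. A minimum log2 difference of 1 could only remove calls. A fit without a mouse leaves 1 array in a group, so a lack of calls there is not a result about the members. With all 4 arrays, limma's lowest adjusted p among members ran from 0.11 to 0.19 in these alternatives. The median difference of the 30 was -0.07 without leukaemic replicate 1 and -0.55 without leukaemic replicate 2, against -0.33. Signs turned, all uncalled, in 9 of the 30 probe sets, which with a mouse left out ranged as follows: Psmb8 from -0.31 to 0.10, Psmb9 from -0.39 to 0.02, Psmb10 from -0.26 to 0.13, Nlrc5 10574104 from -0.54 to 0.06, 10574135 from -0.69 to 0.14, 10574145 from -0.76 to 0.10 and 10574163 from -0.65 to 0.09, and the Rps3a1 and Tapbp probe sets 10421908 from -0.05 to 0.03 and 10499121 from -0.05 to 0.28. The highest of the Psmb and Nlrc5 values were those without leukaemic replicate 1. Probe set 10421908 was at 0.05 after median centring. Outside the set, Psme2 ranged from -0.10 to 0.23 with a mouse left out. The 3 proteasome pair differences stayed below 0 in 18 of 18 alternatives, which was in part fixed in advance. No pair overlapped between the groups, so leaving a mouse out could not turn the sign. Centring an array leaves a difference taken within it unchanged. Over all probe sets 391 were called (64.7% higher), against 438 after median centring (75.8% higher), 88 after quantile normalization (85.2% higher), 980 with the other variance prior (55.7% higher), and 0 to 1103 with a mouse left out. The share higher was 23.1% of 39 without wild type replicate 1 and 42.8% of 1103 without leukaemic replicate 2. In the fits without a leukaemic mouse the estimated prior degrees of freedom were infinite, so that all probe sets shared 1 variance and small adjusted p rest on that. Of 124 pathway genes 4 were called, against 0 after quantile normalization, 11 with the other variance prior, and 0 to 21 with a mouse left out. With the replicate block, 1605 probe sets (48.6% higher) and 23 pathway genes were called, in a fit with 1 residual degree of freedom. Same-numbered arrays deviated from their group means with a correlation of -0.08 across probe sets, and no label pairs the mice. The cause of these shifts was not tested.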
